A study of Mus musculus with 8 samples.

Results

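The 40 genes described here make sterols and fatty acids or steer that synthesis through the SREBP transcription factors. They were taken as a fixed list of gene symbols, by a rule that uses no measured values, and all 40 were found among the 23993 symbols of the expression table. The list holds a sterol arm of 19 genes, 5 regulators of SREBP and a fatty acid arm of 16 genes, which are described apart. All 40 passed the filter on low values, set at 1 FPKM averaged over all 8 libraries, as did 12107 genes of the whole table. FPKM counts sequenced fragments per kilobase of transcript and per fragments mapped in the library, so that levels of different genes can be set side by side.

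The RNA came from the thoracic aorta of male mice of strain C57BL/6, aged 24 weeks. Every mouse carried Myh11-CreERT2.mT/mG, a tamoxifen-inducible Cre made in smooth muscle together with a fluorescent reporter, and every mouse was given tamoxifen at 1.5 weeks. The 4 control libraries (Ctrl) were Tsc1+/+, and the 4 knockout libraries (KO) came from Tsc1fl/fl mice, in which Cre removes Tsc1 from smooth muscle. The labels call the samples smooth muscle cells, but the protocol crushes the whole aorta and names no sorting. The labels do not say outright that each library is a separate animal. If some were not, a p-value here reflects only how far these libraries scatter, and part of that scatter may be technical.

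Sterols and fatty acids are both built from cytosolic acetyl-CoA. Srebf2 encodes the SREBP that mainly drives sterol genes and Srebf1 the one that mainly drives fatty acid genes, while SCAP escorts both to the Golgi for cleavage and the INSIG proteins hold SCAP in the endoplasmic reticulum when sterols are plentiful. Tsc1 is a brake on the growth kinase complex mTORC1, which is known to raise SREBP activity in several cell types. In smooth muscle, as elsewhere, the products serve membranes, lipid droplets and prenylated proteins.

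The targeted gene, Tsc1, measured 4.03, 4.82, 4.95 and 6.32 FPKM in the controls, in order of their numbers, against 2.99, 3.58, 3.37 and 3.71 FPKM in the knockouts, so the groups did not overlap and transcript remained in every knockout library. Library depth is known only relative to control 1 and ran from 0.763 (KO1) to 2.45 times (Ctrl3). Libraries with odd numbers stood apart from those with even numbers in both genotypes on the second principal component, which held 16.6% of the variance, beside 44.8% for the first, which separated the genotypes. No label explains that split. Control 1 held more fat transcript than the others: the 12 white fat markers summed to 1074 FPKM there, to 369 to 458 FPKM in the other controls and to 332 to 625 FPKM in the knockouts, where KO3 was highest. Fabp4 alone gave 711 FPKM of the white fat sum in Ctrl1. The 8 brown fat markers summed to between 54.9 and 268 FPKM in controls and between 47.6 and 178 FPKM in knockouts. The 8 smooth muscle markers summed to 17260 to 17657 FPKM in controls and 11313 to 15127 FPKM in knockouts, and 5 of them fell. All genes of a library summed to 483615 to 937271 FPKM in controls and 453564 to 467703 FPKM in knockouts. The marker sums were not scaled to these totals. In whole-vessel RNA, fewer cells of a type and less RNA per cell cannot be told apart.

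Each gene was compared between genotypes with limma on the log2(FPKM + 1) scale. Changes of genes at a few FPKM, such as Stard4, Mvd and Lss, appear too small there, most of all near or under 1 FPKM. A gene was said to rise or fall where its Benjamini-Hochberg adjusted p over the 12107 tested genes was under 0.05. By that rule 32.2% of all tested genes passed: 17.1% rose and 15.0% fell. Of the 40 genes 14 rose, none fell and 26 did not pass. Their median log2 difference was 0.27, beside 0.01 over all tested genes. In 12 of the 40 all knockout libraries lay above all controls, as in 18.3% of tested genes.

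**Figure D1:**
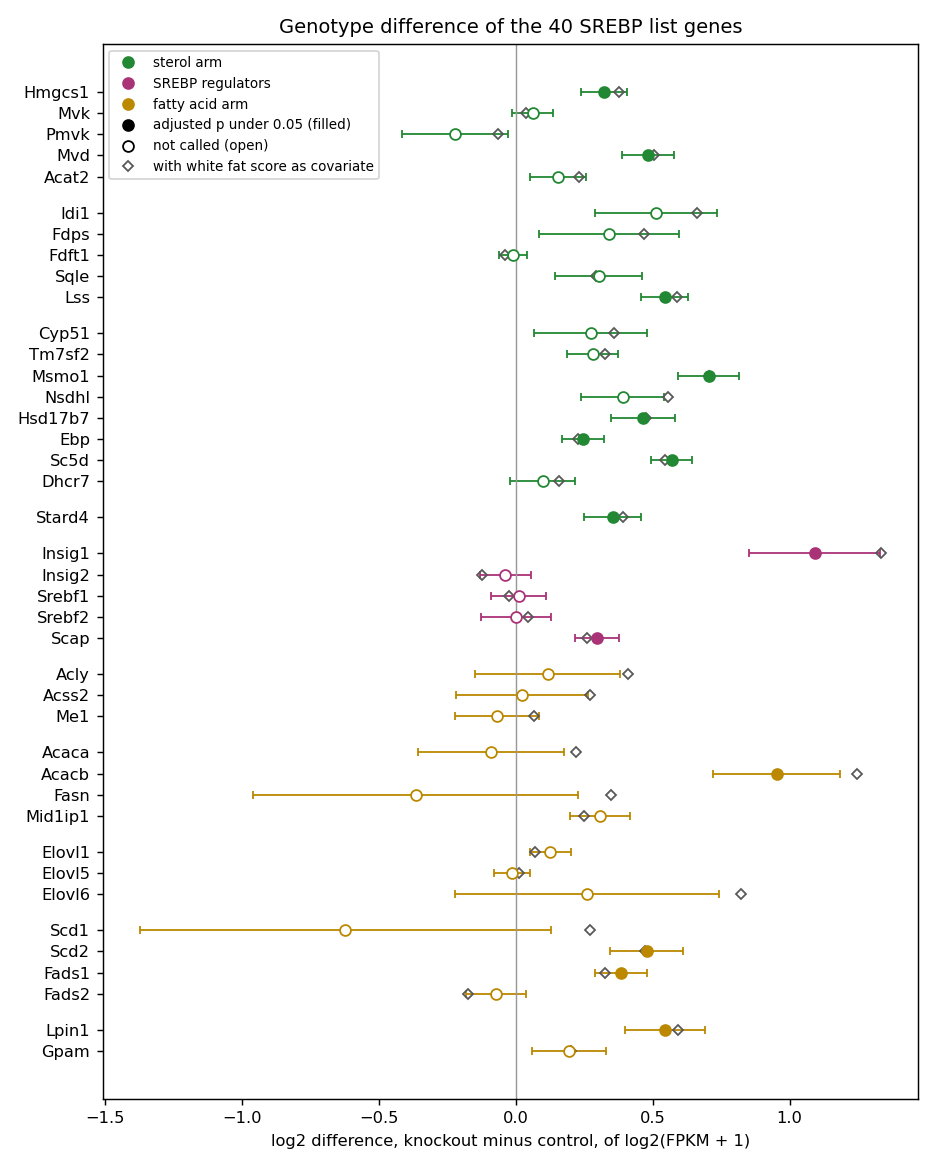
Log2 difference of each of the 40 genes between knockout and control on the log2(FPKM + 1) scale, with its standard error, grouped as sterol arm, regulators and fatty acid arm; filled points passed the limma test and diamonds give the value with a white fat score as a covariate. The sterol arm lies mostly to the right of 0, with a median of 0.32, and the fatty acid arm spreads from -0.62 to 0.95.

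Of the 19 genes of the sterol arm 8 rose (42.1%, beside 17.1% of all tested genes), none fell and 11 did not pass. In the 8 that rose all knockout libraries lay above all controls, an order seen in 18.3% of tested genes. The log2 differences ran from -0.22 to 0.70 with a median of 0.32, and 17 of 19 were above 0. The steps from lanosterol to cholesterol held 4 of the 8 genes, and each of the 8 genes of that stretch had a difference above 0. The count was 5 without KO3 and 4 when the even-numbered libraries were compared alone.

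Msmo1 (Chr 8, 64718139 to 64733792, minus strand, mm10), the oxidase that begins removal of the C4 methyl groups of sterols, had the largest difference of the arm on the log2(FPKM + 1) scale; with a pseudocount of 0.1 Hsd17b7 had 0.74 and Msmo1 0.73. The Msmo1 level was 15.4, 14.7, 19.9 and 16.4 FPKM over controls 1 to 4 and 30.9, 24.6, 30.2 and 25.0 FPKM in knockouts 1 to 4. Every knockout library was above every control, and the odd-numbered knockouts were the highest. The means were 16.6 ± 2.31 and 27.7 ± 3.35 FPKM (SD, n = 4 each), a log2 difference of 0.70 with a standard error of 0.11 and a limma adjusted p of 0.00177.

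Sc5d (Chr 9, 42251595 to 42264256, minus strand), the desaturase that sets the C5 double bond late in the pathway, had 8.59, 9.61, 8.65 and 9.99 FPKM in controls and 12.8, 15.4, 14.6 and 13.8 FPKM in knockouts. The gap between the groups was wider than the spread within either. The means were 9.21 ± 0.702 and 14.1 ± 1.09 FPKM (SD, n = 4 each), and the log2 difference of 0.57 had a standard error of 0.07 and the smallest limma adjusted p of the 40 genes, 7.14e-04.

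Lss (Chr 10, 76531588 to 76557138, plus strand), lanosterol synthase, closes the first sterol ring system. It had 3.39, 3.0, 3.49 and 2.63 FPKM in controls and 4.57, 4.88, 5.27 and 5.30 FPKM in knockouts, again without overlap. The means were 3.13 ± 0.396 and 5.01 ± 0.345 FPKM (SD, n = 4 each), with a log2 difference of 0.54, a standard error of 0.09 and a limma adjusted p of 0.00189. Msmo1, Sc5d and Lss were the only genes among the 14 that passed under all 18 alternative analyses.

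Further risen genes lay on either side of Lss. Mvd, which decarboxylates mevalonate diphosphate, had 2.65, 2.54, 2.57 and 2.39 FPKM in controls and 4.19, 4.14, 4.43 and 3.12 FPKM in knockouts, with KO4 the lowest knockout yet above every control. The fitted log2 difference was 0.48 (standard error 0.10, limma adjusted p 0.0053). Hmgcs1, the cytosolic HMG-CoA synthase at the pathway's entry, had 17.6, 17.1, 14.7 and 14.4 FPKM in controls and 21.3, 18.2, 21.1 and 19.9 FPKM in knockouts. Its groups were close, with KO2 just above Ctrl1. The log2 difference was 0.32 (standard error 0.08, limma adjusted p 0.0184), and without KO3 the adjusted p was 0.0508.

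Hsd17b7, a 3-ketosteroid reductase acting after Msmo1, was the least abundant of the arm. It had 1.03, 0.862, 1.40 and 1.25 FPKM in controls and 2.18, 1.53, 2.02 and 2.04 FPKM in knockouts, with KO2 the closest to the controls. On the log2 scale the difference was 0.47 (standard error 0.12, limma adjusted p 0.0153). Since its level is near the pseudocount, its ratio of means, 1.95 ± 0.284 over 1.14 ± 0.237 FPKM (SD, n = 4 each), is larger than that difference shows.

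Ebp, the sterol isomerase, and Stard4, a carrier that moves cholesterol between membranes, rose less firmly. Ebp had 12.1, 14.0, 13.6 and 12.9 FPKM in controls and 16.9, 15.1, 17.1 and 14.1 FPKM in knockouts, where KO4 was barely above Ctrl2. This gave a log2 difference of 0.24 (standard error 0.08, limma adjusted p 0.0398), and it no longer passed when any library except KO4 was left out, with adjusted p up to 0.103. Stard4 had 1.45, 1.45, 1.43 and 1.61 FPKM in controls and 2.03, 1.72, 2.35 and 2.67 FPKM in knockouts, also without overlap. Stard4 rose by 0.35 on the log2 scale (standard error 0.11, limma adjusted p 0.0322), and it no longer passed when any library except Ctrl4 or KO2 was left out, with adjusted p up to 0.0794.

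**Figure D2:**
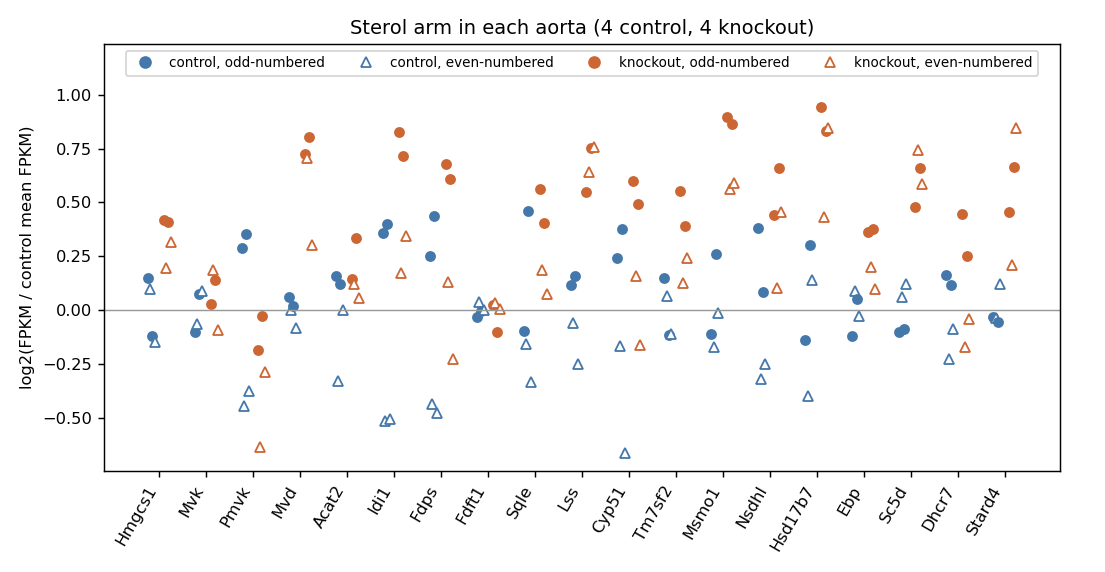
Level of the sterol arm genes in each of the 8 libraries, as log2 of FPKM over the gene's control mean, with controls and knockouts in separate colours and odd- and even-numbered libraries in separate marks. For Msmo1, Sc5d and Lss the knockout points lie above all control points, while for Idi1 and Fdps the odd-numbered points of both genotypes lie above the even-numbered ones.

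Of the 11 sterol genes that did not pass, several had their high values in the odd-numbered libraries. Idi1, the isopentenyl diphosphate isomerase, had 8.88, 4.86, 9.15 and 4.88 FPKM in controls and 12.3, 7.83, 11.4 and 8.79 FPKM in knockouts. The odd-numbered libraries were the high ones in both genotypes, and the even-numbered knockouts lay below the odd-numbered controls. The log2 difference was 0.51 with a limma adjusted p of 0.11, and once a covariate separated odd from even libraries the adjusted p was 0.00128.

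Fdps, which makes farnesyl diphosphate, had the same layout with 30.1, 18.7, 34.2 and 18.2 FPKM in controls and 40.5, 27.6, 38.6 and 21.6 FPKM in knockouts. Its log2 difference was 0.34, with a limma adjusted p of 0.341, or 0.0113 with the covariate. Sqle, squalene epoxidase and a known control point of the pathway, had 7.5, 7.19, 11.0 and 6.37 FPKM in controls and 11.8, 9.13, 10.6 and 8.45 FPKM in knockouts. The high value of Ctrl3 reached into the knockout range. The log2 difference was 0.30 with an adjusted p of 0.176, and without Ctrl3 it was 0.45 with an adjusted p of 0.0258.

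Both odd-numbered libraries lay above both even-numbered ones, within each genotype, in 8 of the 19 sterol genes (Pmvk, Mvd, Idi1, Fdps, Sqle, Cyp51, Dhcr7 and Acat2), beside 9.72% of tested genes. The reverse order occurred in none of the 19 and in 14.9% of tested genes. In the fit with that covariate 12 of the 19 sterol genes were higher and none lower, beside 21.8% and 19.4% of tested genes. The split is named by no label and shows in these same libraries, so genes that newly pass with it are no independent support. 

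Nsdhl, the C4 decarboxylating dehydrogenase that follows Msmo1, had a log2 difference of 0.39 with a limma adjusted p of 0.0821, or 0.0149 with that covariate. It was 0.0266 without Ctrl1. Tm7sf2, a C14 sterol reductase, was at the threshold with a log2 difference of 0.28 and an adjusted p of 0.0506. It passed without Ctrl1 or without KO2, with adjusted p down to 0.033. Cyp51, the lanosterol demethylase, had 0.27 and an adjusted p of 0.348, or 0.0637 with that covariate.

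The other 5 genes of the arm had small differences or, for Pmvk, a negative one. Acat2, the cytosolic thiolase that opens the route, had a log2 difference of 0.15 (limma adjusted p 0.279), and Dhcr7, one of the final reductases, 0.10 (adjusted p 0.563). Mvk, mevalonate kinase, had 0.06 and Fdft1, squalene synthase, -0.01, with adjusted p of 0.565 and 0.903. Pmvk, the next kinase after Mvk, had the lowest value, -0.22 with an adjusted p of 0.415; its controls ranged from 10.2 to 17.7 FPKM. Among the odd-numbered libraries alone Pmvk passed as lower, at -0.40 with an adjusted p of 0.0311. Mvd, which acts directly after these kinases, rose, and its difference from them was not tested.

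Among the 5 regulators Insig1 and Scap rose, beside 17.1% of all tested genes, and the 3 others did not pass. The median log2 difference of the 5 genes was 0.01. Insig1 (Chr 5, 28071363 to 28078662, plus strand) had the largest difference of all 40 genes. It had 19, 8.93, 10.4 and 15.1 FPKM in controls and 33.2, 19.98, 34.2 and 28.9 FPKM in knockouts. The groups did not overlap, though KO2 was only just above Ctrl1. The means were 13.4 ± 4.58 and 29.1 ± 6.49 FPKM (SD, n = 4 each), a ratio of 2.17, with a log2 difference of 1.09, a standard error of 0.24 and a limma adjusted p of 0.00894.

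Insig2, which encodes the second INSIG and is known to respond differently to sterols, had 21.9, 27.5, 25.0 and 27.8 FPKM in controls and 23.6, 26.0, 22.2 and 27.3 FPKM in knockouts. The groups overlapped fully, and the even-numbered libraries were the higher ones in both. Its log2 difference was -0.04 (standard error 0.09, limma adjusted p 0.777). The ratio of Insig1 to Insig2 was 0.325 to 0.868 over the controls and 0.769 to 1.54 over the knockouts, so KO2 fell below Ctrl1.

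Srebf1 and Srebf2 themselves showed no difference that passed. Srebf1 had 18.5, 21.1, 22.0 and 24.6 FPKM in controls and 18.5, 22.3, 22.9 and 23.2 FPKM in knockouts, a log2 difference of 0.01 (standard error 0.10, limma adjusted p 0.945). Srebf2 had 29.6, 23.6, 36.0 and 23.6 FPKM in controls and 28.9, 26.2, 29.3 and 26.7 FPKM in knockouts, a log2 difference of -0.00 (standard error 0.13, limma adjusted p 0.999). Transcript levels carry no information on cleavage of either protein. The sign of both small differences changed between alternative scalings.

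Scap had 13.0, 15.6, 15.2 and 15.7 FPKM in controls and 19.1, 18.4, 20.1 and 16.4 FPKM in knockouts, with KO4 nearest to the controls. Scap rose by 0.30 (log2 scale; standard error 0.08, limma adjusted p 0.0237). It no longer passed without KO1, KO2 or KO3, with adjusted p up to 0.064, nor with a white fat score (the mean of log2(FPKM + 1) over the white fat markers of each library) as a covariate, at a log2 difference of 0.26 and an adjusted p of 0.0638.

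**Figure D3:**
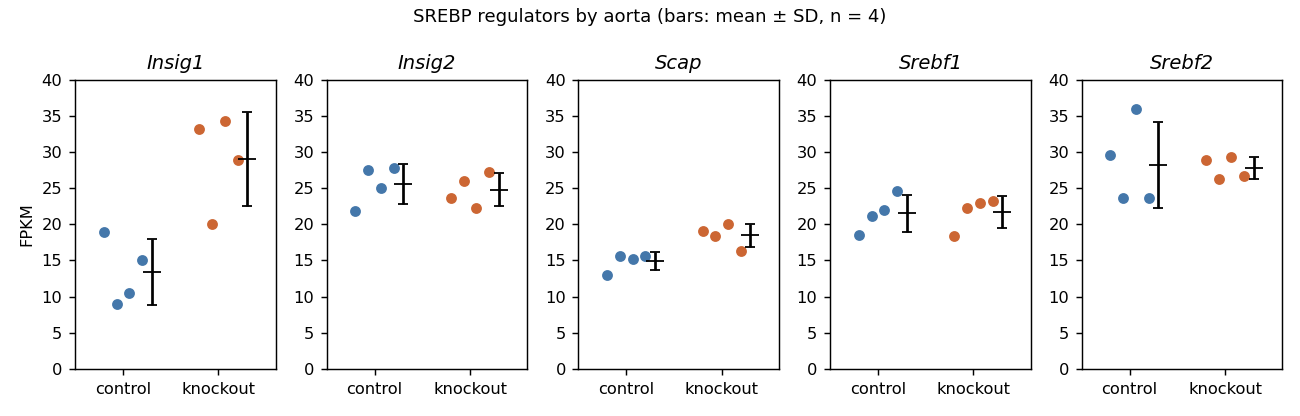
FPKM of the 5 SREBP regulators in each library, with the group means and SD as bars (n = 4 each). Insig1 and Scap have every knockout point above every control point, while the points of Insig2, Srebf1 and Srebf2 overlap between the genotypes.

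The DNA just upstream of the genes was searched for letters known from SREBP targets and their partner factors. Promoter windows of RefSeq (GRCm38.p6, 250 bases before to 50 after the start) were found for 33 of the 40 genes, namely 15 sterol genes, 5 regulators and 13 fatty acid genes. They were searched on both strands for CCAAT (the box bound by NF-Y, a usual partner of SREBP), GGGCGG (a GC box), TCACNCCAC (a form of the sterol regulatory element) and TCACGTG (an E-box form, added after the windows had been read). The genes printed were picked by hand and do not stand for the rest. Among those left out, Elovl5 holds TCACGTG and did not pass. Mvd, Msmo1 and Ebp, also left out, rose and hold neither TCACGTG nor TCACNCCAC. The stretches below are of 4 risen sterol genes, of both INSIG genes, of which only Insig1 passed the test, and of Fasn from the fatty acid arm. They are written on the gene's own strand, in lower case with matches to CCAAT, TCACNCCAC or TCACGTG, or their complements, in capitals; in Fasn 2 CCAAT matches overlap. They lie at chr13:119690111-119690350 (Hmgcs1, plus), chr10:76531365-76531587 (Lss, plus), chr1:169969242-169969445 (Hsd17b7, minus), chr9:42264301-42264540 (Sc5d, minus), chr5:28071172-28071362 (Insig1, plus), chr1:121332590-121332829 (Insig2, minus, the most upstream of 3 windows) and chr11:120824548-120824787 (Fasn, minus).
Hmgcs1: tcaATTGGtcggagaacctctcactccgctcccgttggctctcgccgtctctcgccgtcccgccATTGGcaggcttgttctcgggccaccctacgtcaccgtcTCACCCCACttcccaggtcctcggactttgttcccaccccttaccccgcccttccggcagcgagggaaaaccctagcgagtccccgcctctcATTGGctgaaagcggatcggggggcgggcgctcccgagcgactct
Lss: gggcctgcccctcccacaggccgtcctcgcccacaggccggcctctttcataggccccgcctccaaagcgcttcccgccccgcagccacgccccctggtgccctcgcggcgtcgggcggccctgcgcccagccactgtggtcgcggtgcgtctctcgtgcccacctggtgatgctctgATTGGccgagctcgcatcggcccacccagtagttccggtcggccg
Hsd17b7: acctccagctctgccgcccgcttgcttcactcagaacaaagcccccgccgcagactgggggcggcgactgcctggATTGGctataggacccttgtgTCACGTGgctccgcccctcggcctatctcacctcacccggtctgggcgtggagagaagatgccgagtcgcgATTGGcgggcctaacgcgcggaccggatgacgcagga
Sc5d: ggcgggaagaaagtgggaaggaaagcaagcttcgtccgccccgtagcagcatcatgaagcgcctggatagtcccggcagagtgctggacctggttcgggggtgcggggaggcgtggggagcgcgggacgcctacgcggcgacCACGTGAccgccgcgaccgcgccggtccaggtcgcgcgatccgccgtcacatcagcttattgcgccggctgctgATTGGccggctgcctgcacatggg
Insig1: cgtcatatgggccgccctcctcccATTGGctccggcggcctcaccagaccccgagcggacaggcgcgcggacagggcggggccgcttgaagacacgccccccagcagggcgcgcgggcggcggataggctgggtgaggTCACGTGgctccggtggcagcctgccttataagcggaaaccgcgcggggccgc
Insig2: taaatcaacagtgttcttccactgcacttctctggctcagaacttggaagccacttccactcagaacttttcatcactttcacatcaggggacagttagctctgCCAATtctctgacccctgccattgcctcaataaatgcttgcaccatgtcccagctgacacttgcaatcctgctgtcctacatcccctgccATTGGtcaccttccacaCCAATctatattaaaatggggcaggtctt
Fasn: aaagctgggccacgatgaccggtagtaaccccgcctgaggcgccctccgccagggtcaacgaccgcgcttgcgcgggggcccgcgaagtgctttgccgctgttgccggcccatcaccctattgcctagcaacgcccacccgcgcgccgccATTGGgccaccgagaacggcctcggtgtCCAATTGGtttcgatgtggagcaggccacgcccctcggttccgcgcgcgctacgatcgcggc

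A CCAAT was present in 14 of the 15 matched sterol genes, in 4 of the 5 regulators and in 8 of the 13 matched fatty acid genes, beside 37.4% of the 32851 windows and 42.6% of the 9096 tested genes with a window. Acat2 was the sterol gene without one. The 7 matched sterol genes that rose all had a CCAAT, as did 7 of the 8 that did not pass, so the box did not separate them. A GGGCGG was present in 14 of 15 sterol genes, 5 of 5 regulators and 7 of 13 fatty acid genes, beside 35.7% of windows and 69.9% of tested genes.

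TCACNCCAC was found in Hmgcs1 only, 137 bases upstream of the start, beside 1.24% of windows and 1.42% of tested genes. TCACGTG was found in Insig1, Hsd17b7, Sc5d and Elovl5, beside 3.77% of all windows and 7.08% of tested genes. As it was picked from these windows, its share among them is no evidence of a pattern. These matches describe the letters in these windows, and absence of a match draws nothing about a factor.

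The fatty acid arm held a few genes that rose and many whose highest library was control 1. Of its 16 genes 4 rose (25.0%, beside 17.1% of all tested genes), none fell and 12 did not pass. The median log2 difference was 0.12, with 10 genes above 0 and 6 below. Only Fads1 and Lpin1 had all knockouts above all controls, an order seen in 18.3% of tested genes. The median was -0.05 among the odd-numbered libraries, 0.36 among the even-numbered ones, -0.01 without Ctrl2 or without Ctrl4, and 0.22 without Ctrl1. The count of risen genes was 2 without Ctrl2, KO3 or KO4.

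Acacb (Chr 5, 114146535 to 114250761, plus strand), the mitochondrial-surface acetyl-CoA carboxylase whose malonyl-CoA restrains fatty acid oxidation, had the largest difference of the arm. It had 8.36, 3.55, 3.85 and 4.20 FPKM in controls and 9.66, 7.79, 13.0 and 10.5 FPKM in knockouts. Ctrl1 stood apart from the other controls and lay above KO2. The means were 4.99 ± 2.26 and 10.2 ± 2.15 FPKM (SD, n = 4 each), with a log2 difference of 0.95, a standard error of 0.23 and a limma adjusted p of 0.0142. The difference was 1.25 with the white fat score as a covariate, and it did not pass among the odd-numbered libraries alone (0.86, adjusted p 0.143).

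Acaca, the cytosolic carboxylase that feeds synthesis, did not pass. It had 24.0, 9.74, 14.7 and 9.79 FPKM in controls and 10.5, 11.0, 16.1 and 14.0 FPKM in knockouts, with Ctrl1 the highest of all 8. Its log2 difference was -0.09 (standard error 0.27, limma adjusted p 0.824). The ratio of Acacb to Acaca was 0.262 to 0.429 over the controls and 0.708 to 0.922 over the knockouts, and the ranges did not meet. How often ratios of other gene pairs separate in this way was not counted.

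Fasn, the synthase that makes palmitate, had 86.4, 12.1, 32.3 and 15.3 FPKM in controls and 16.5, 11.1, 38.0 and 26.2 FPKM in knockouts. Ctrl1 was far above the rest, and KO2 and Ctrl2 were the lowest. The log2 difference was -0.37 (standard error 0.59, limma adjusted p 0.672), and it was 0.18 without Ctrl1 and 0.35 with the white fat score as a covariate. Scd1, the stearoyl-CoA desaturase abundant in fat, spread still more, with 475, 41.6, 117 and 49.8 FPKM in controls and 45.6, 34.1, 119 and 109 FPKM in knockouts. Its log2 difference was -0.62 (standard error 0.75, limma adjusted p 0.559), or 0.10 without Ctrl1.

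The adipocyte genes Adipoq and Plin1 were also highest in Ctrl1 and, among the knockouts, in KO3, and lowest in KO2. Among the white fat markers only Pparg was not highest in Ctrl1, with 4.87 FPKM there, 8.35 FPKM in KO3 and 6.45 FPKM in KO4. Pnpla2 hardly differed, with 78.4 FPKM in Ctrl1 and 74.8 FPKM in KO3. Adipoq had 44.0, 9.13, 14.7 and 12.0 FPKM in controls and 8.55, 4.87, 20.2 and 9.88 FPKM in knockouts, and Plin1 had 20.8 FPKM in Ctrl1 and 2.70 to 10.1 FPKM in the other 7 libraries. Of the 11 white fat markers tested, Retn fell (log2 difference -1.03, limma adjusted p 0.0354) and the others did not pass. Ctrl1 was the highest of all 8 libraries in 8 fatty acid genes (Acly, Acaca, Fasn, Scd1, Elovl5, Elovl6, Acss2 and Me1) and in no sterol gene or regulator. For Elovl5 the lead was small, at 31.5 FPKM beside 30.1 FPKM in Ctrl3. How often Ctrl1 is the highest library over all tested genes was not counted. In the fit with the white fat score as a covariate 4 fatty acid genes were higher, with a median of 0.27, beside 14.5% of tested genes higher and 28.0% in either direction. These were not the same 4 genes, since Scd2 no longer passed (limma adjusted p 0.0557) and Elovl6 did (0.0497). In that fit 9 sterol genes were higher and 0 lower, with a median of 0.38.

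**Figure D4:**
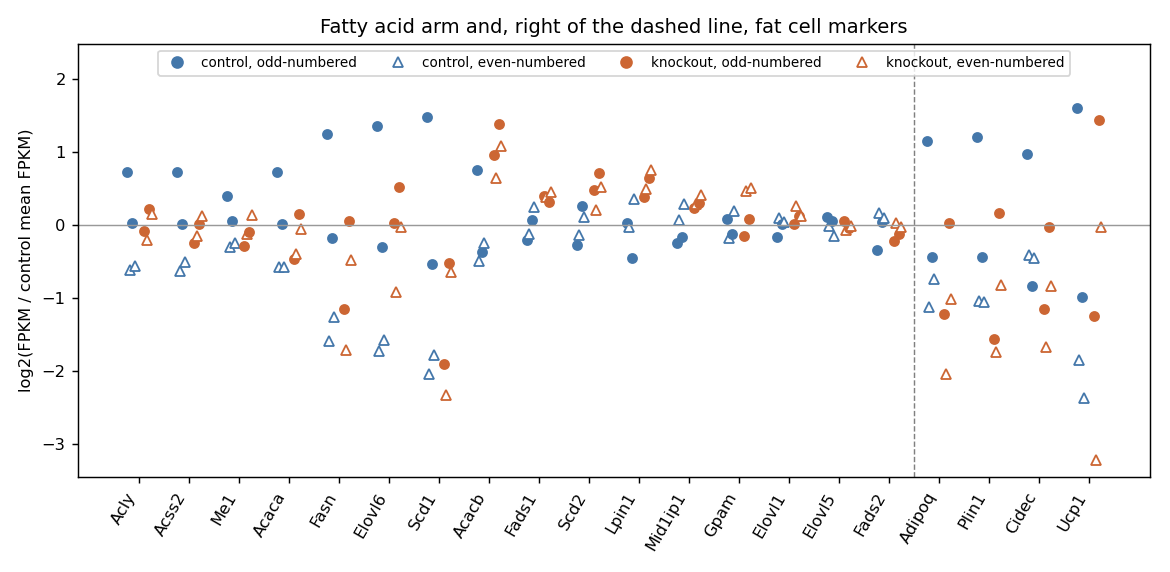
Level of the fatty acid arm genes in each of the 8 libraries, as log2 of FPKM over the gene's control mean, with controls and knockouts in separate colours, odd- and even-numbered libraries in separate marks, and 4 fat cell markers right of the dashed line. Ctrl1 is the top point for Fasn, at 86.4 FPKM, and Scd1, at 475 FPKM, while the knockout points of Fads1 and Lpin1 lie above all controls.

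Scd2 and Fads1, both desaturases, rose, while Scd1 and Fads2, family members on the same chromosome, did not pass. Scd2 (Chr 19, 44293674 to 44306864, plus strand), the desaturase form found broadly outside fat and liver, had 29.3, 32.3, 42.5 and 38.1 FPKM in controls and 49.3, 41.0, 58.0 and 50.7 FPKM in knockouts. KO2 lay below Ctrl3, and the other knockouts were above every control. Scd2 rose by 0.48 on the log2 scale (standard error 0.13, limma adjusted p 0.0252). It no longer passed without Ctrl1, Ctrl2, KO1, KO3 or KO4, with adjusted p up to 0.0677, nor with the white fat covariate, at 0.0557. The ratio of Scd2 to Scd1 overlapped between the groups, at 0.0616 to 0.777 over the controls and 0.463 to 1.20 over the knockouts. Scd1 and Scd2 are close in sequence, and how fragments shared between them were assigned is not given in the sources used here.

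Fads1 (Chr 19, 10182888 to 10196877, plus strand), the delta-5 desaturase of polyunsaturated fatty acids, had 30.2, 32.0, 36.6 and 41.3 FPKM in controls and 45.9, 45.7, 43.6 and 47.9 FPKM in knockouts. The knockouts were tightly grouped above the controls. The log2 difference was 0.38 (standard error 0.09, limma adjusted p 0.0144), and among the odd- or even-numbered libraries alone it did not pass, with adjusted p of 0.0534 and 0.112. Fads2 (Chr 19, 10062765 to 10101746, minus strand), the delta-6 desaturase of the same cluster, had 24.7 to 35.3 FPKM across controls and 26.9 to 32.1 FPKM across knockouts (log2 difference -0.07, adjusted p 0.65). The ratio of Fads1 to Fads2 was 0.906 to 1.23 in controls and 1.42 to 1.70 in knockouts.

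Lpin1, a phosphatidate phosphatase of triglyceride synthesis that also acts in the nucleus on SREBP, had 10.3, 9.89, 7.38 and 12.9 FPKM in controls and 13.1, 14.3, 15.8 and 17.0 FPKM in knockouts. KO1 was just above Ctrl4, so the groups were adjacent without overlap. Its log2 difference was 0.55 (standard error 0.15, limma adjusted p 0.0209), and it no longer passed without Ctrl2, KO3 or KO4, with adjusted p up to 0.0567. Mid1ip1, which stimulates acetyl-CoA carboxylase, had a log2 difference of 0.31 with an adjusted p of 0.0617. It passed without Ctrl4 (0.0114), with the odd or even covariate (0.0161) and among the odd-numbered libraries alone (0.0142). Gpam, the first acyltransferase of glycerolipid synthesis, had 0.19 and an adjusted p of 0.299.

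The 3 genes of acetyl-CoA and NADPH supply did not pass. Acly, which splits citrate, had 51.2 FPKM in Ctrl1 and 20.3 to 36.0 FPKM elsewhere, with a log2 difference of 0.12 and a limma adjusted p of 0.77. Acss2, which activates acetate, had 0.02, and Me1, the cytosolic malic enzyme, -0.07, with adjusted p of 0.951 and 0.757. Among the even-numbered libraries alone, which leave out Ctrl1, Acly was higher by 0.53 and Acss2 by 0.49, with adjusted p of 0.0419 and 0.0395.

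None of the 3 elongases passed. Elovl6, which lengthens palmitate, had 9.51, 1.13, 3.0 and 1.25 FPKM in controls and 3.78, 1.96, 5.34 and 3.64 FPKM in knockouts, a log2 difference of 0.26 with a limma adjusted p of 0.713. Ctrl1 was again the highest, and with the white fat score as a covariate the difference was 0.82 with an adjusted p of 0.0497. Elovl1, for very long saturated chains, had 0.13 and Elovl5, for polyunsaturated chains, -0.02, with adjusted p of 0.228 and 0.878.

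Neighbouring pathways were read from lists of other genes, whose counts stand beside 17.1% of all tested genes that rose and 15.0% that fell. Of 10 genes that process SREBP or turn INSIG over, Mbtps1, the protease of the first SREBP cleavage, fell (log2 difference -0.27, limma adjusted p 0.0144), from 47.8 ± 3.56 to 39.5 ± 1.59 FPKM (SD, n = 4 each). Fbxw7, which marks nuclear SREBP for degradation, fell by 0.26, and Lmna by 0.25, while Vcp rose by 0.23. Lmna no longer passed when any of 6 libraries (Ctrl2, Ctrl3, Ctrl4, KO1, KO3, KO4) was left out, with adjusted p up to 0.0733. The median of that list was -0.05.

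Of 11 genes of the LXR and sterol-sensing list, Nr1h3, which encodes LXR alpha, and Nfe2l1 rose, by 0.53 and 0.19, and none fell. Each no longer passed when any of 5 libraries was left out (for Nr1h3 Ctrl1, Ctrl3, Ctrl4, KO1 or KO3, for Nfe2l1 Ctrl1, Ctrl2, KO2, KO3 or KO4), with adjusted p up to 0.095 and 0.0668. The list's median was 0.01, and its 2 risen genes of 11 stand beside 17.1% of all tested genes.

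Lipid uptake and lysosomal export had 5 of 11 genes risen, beside 17.1% of all tested genes, none lower and a median of 0.28. Lipa, the lysosomal acid lipase, went from 21.0 ± 1.90 to 41.7 ± 5.02 FPKM (SD, n = 4 each; log2 difference 0.95), Scarb2 rose by 0.61, Lrp8 by 0.51 and Npc2, which hands cholesterol out of the lysosome, by 0.43. Of 6 tested genes of sterol esterification and storage 3 rose, with a median of 0.30: Nceh1, a cholesteryl ester hydrolase, by 0.92, Soat1, which esterifies cholesterol, by 0.44 and Plin3 by 0.38. In the isoprenoid branch, which leaves the mevalonate route at farnesyl diphosphate, 2 of 10 rose, Icmt by 0.36 and Ggps1 by 0.25, with a median of 0.09. Ggps1 no longer passed without Ctrl2, Ctrl3, Ctrl4, KO2 or KO4, with adjusted p up to 0.0834.

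On the fatty acid side, 5 of 10 tested genes of other elongase-cycle enzymes, desaturases and acyl-CoA synthetases rose and 1 fell, with a median of 0.16. Hsd17b12, the ketoreductase of the elongation cycle, rose from 37.0 ± 4.17 to 65.6 ± 2.23 FPKM (SD, n = 4 each; limma adjusted p 1.70e-04), Acsl5 by 0.52 and Ptplad1 (Hacd3) by 0.47. Ptpla (Hacd1), a dehydratase of the same cycle known to be enriched in muscle, fell from 129.6 ± 2.87 to 76.4 ± 2.0 FPKM (SD, n = 4 each; limma adjusted p 2.44e-05).

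Of 9 genes that supply cytosolic NADPH or citrate 4 rose, none fell and the median was 0.23: Idh1 rose by 0.65, Pgd by 0.50, G6pdx by 0.29 and Mdh1 by 0.21. Of 15 genes of glycerolipid and phospholipid synthesis 5 rose, with a median of 0.10. Pcyt1a, the rate-limiting enzyme of phosphatidylcholine synthesis, rose by 0.71, Chka by 0.62, Lpin2 by 0.50 and Etnk1 by 0.37. In fatty acid oxidation 2 of 17 rose, beside 17.1% of all tested genes, with a median of 0.07. Cpt1a, the carnitine transferase that malonyl-CoA inhibits, rose by 0.60 (limma adjusted p 0.00254) and Ppara by 0.51 (adjusted p 0.0373). Ppara no longer passed when any of 6 libraries (Ctrl2, Ctrl3, Ctrl4, KO2, KO3, KO4) was left out, with adjusted p up to 0.0938.

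**Figure D5:**
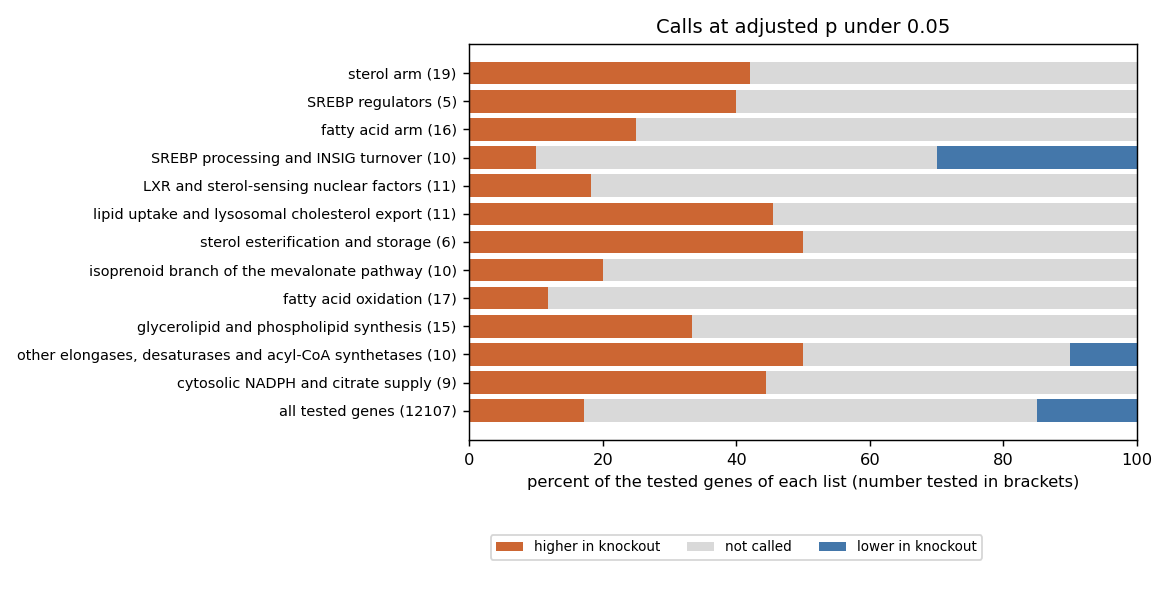
Percent of the tested genes that rose (higher in knockout), fell or did not pass in each of the 3 groups of the 40 genes, in the neighbouring lists and in all tested genes, with the number tested in brackets. The sterol arm shows 8 risen of 19, the fatty acid arm 4 of 16 and lipid uptake 5 of 11.

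Some markers of other cell types differed between the genotypes too. Over all tested genes 17.1% rose and 15.0% fell. In endothelial markers 5 of 8 fell, in adventitial fibroblast markers 3 of 8 and in Schwann cell markers 4 of 6 tested, while none of 9 macrophage markers passed. Of the striated muscle markers Ckm fell, among 6 tested, with a list sum of 193 FPKM in Ctrl4, 7.27 to 14.3 FPKM in the other controls and 3.87 to 30.1 FPKM in the knockouts. None of the 2 liver markers tested passed. Of 7 brown fat markers tested only Ppargc1a passed, and it rose. Ucp1 had a log2 difference of 0.16 (limma adjusted p 0.913), and Dio2 and Prdm16 had -0.51 and -0.47. No list had a marker at 0 in every library. The part of these shifts in the sterol and fatty acid differences was not tested.

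In the GENCODE M21 annotation of mm10, 12 of the 40 genes share exon bases with a gene on the opposite strand, among them Hmgcs1, Idi1, Lss and Scap, and Fdft1 with the abundant Ctsb. The count is 4 for genes on the same strand, among them Fdps and Scd2. The strand setting is not given in the sources used here, so the reads of such neighbours cannot be told apart.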

How the data were processed

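The authors deposited FPKM values, 1 column per library, and all 8 columns were used (0 left out). Per the submitters' processing notes the tools were TopHat2, Cufflinks and Cuffdiff and the build mm10, with no version or role stated. Which annotation, strand setting and scaling were used is not given in the sources used here. Per the labels' protocols, polyA RNA was selected from 500 ng of total RNA (RIN above 7). Absolute depth is unknown, and relative depth was read from the steps of values under 0.3 FPKM, where the most frequent ratio held 12.2% to 19.1% of the low genes.

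Values were compared as log2(FPKM + 1) with limma 3.58.1 in R 4.3.3 (trended variance, genotype only, all 8 libraries, two-sided), over the 12107 genes averaging 1 FPKM or more, and checked on simulated data. The simulated shifts were larger than most members showed and were placed in genes well above the filter. That check therefore does not cover smaller differences or genes of low level. The fit used no replicate block. Alternatives were a pseudocount of 0.1, no filter, median-of-ratios and quantile scaling, no variance trend, the replicate block, odd or even number or white fat score as a covariate, odd or even libraries alone, and each library left out. The members, neighbouring lists and markers were chosen with earlier results of these data known. All members are accounted for, with every library's value for those that passed or have a regulatory role. Of each neighbouring list the text names up to 4 genes with the smallest p among those that passed. Older symbols in the table (Ptpla, Ptplb, Ptplad1, Emr1) were matched through RefSeq synonyms.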

Additional observations from a re-analysis of the deposited data

Results flagged for a closer look

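Control 1 stood apart from the other controls in Acacb, with 8.36 FPKM and the nearest control at 4.20 FPKM, a gap of 0.865 of the group's range. Control 4 stood apart in Stard4, with 1.61 FPKM and the nearest control at 1.45 FPKM, a gap of 0.863 of the range. Both gaps exceed Dixon's critical value for 4 samples. These were 2 of 80 groups of 4 examined (40 genes in 2 genotypes), where chance alone flags about 1 in 20.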

How the results depend on the processing

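The 14 members that rose kept their direction in all 18 alternatives, and 3 of them passed in every one. Over the members and 29 named neighbours, 1065 of 1242 single values kept direction and side of the threshold, 101 no longer passed, 27 newly passed and 49 changed sign. The sterol count of 8 was 13 with the replicate block, 4 in even-numbered libraries and 5 to 8 with 1 library left out; 1 sterol gene was lower in odd-numbered libraries. The regulator count of 2 was 0 in even-numbered libraries, 1 with the white fat covariate and 1 to 2 with 1 library left out, and the regulator median was 0.14 in even-numbered libraries and 0.003 to 0.12 with 1 left out. The fatty acid count of 4 was 1 in odd-numbered libraries and 2 to 5 with 1 left out. The cause of these changes was not tested. The odd-numbered, even-numbered and leave-out fits also hold fewer libraries.

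Signs changed for members that had not passed. In even-numbered libraries the log2 difference was 0.0011 for Fdft1, -0.004 for Srebf1, 0.16 for Srebf2, 0.32 for Acaca, 0.31 for Fasn, 0.42 for Scd1, 0.045 for Elovl5 and 0.27 for Me1. In odd-numbered libraries it was -0.30 for Acly, -0.24 for Elovl6, -0.45 for Acss2 and -0.0075 for Gpam. With the white fat covariate it was -0.024 for Srebf1, 0.044 for Srebf2, 0.22 for Acaca, 0.35 for Fasn, 0.27 for Scd1, 0.013 for Elovl5 and 0.066 for Me1. Srebf1 was -0.0012 with median-of-ratios and -0.0006 with quantile scaling, Srebf2 was 0.0036 with quantile scaling and 0.0003 with a pseudocount of 0.1, and Acss2 was -0.011 with quantile scaling. With 1 library left out the ranges were -0.024 to 0.020 for Fdft1, -0.11 to 0.0089 for Insig2, -0.057 to 0.083 for Srebf1, -0.076 to 0.12 for Srebf2, -0.046 to 0.39 for Acly, -0.24 to 0.17 for Acaca, -0.73 to 0.18 for Fasn, -1.06 to 0.10 for Scd1, -0.064 to 0.022 for Elovl5, -0.014 to 0.76 for Elovl6, -0.13 to 0.27 for Acss2 and -0.16 to 0.067 for Me1.

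Whether the replicate numbers pair the samples was not settled. Same-numbered libraries correlated at 0.0656 to 0.173, and 3 of 8 libraries correlated best with their own number. The others correlated best with a library of the same odd or even kind, such as Ctrl1 with KO3 at 0.141. The block gave 2349 higher and 2122 lower of all tested genes, beside 2074 and 1819 without it. Under the block Idi1, Fdps, Cyp51, Tm7sf2, Nsdhl and Mid1ip1 newly passed, with an adjusted p of 0.0272 for Cyp51. Read counts were not analysed here, so the counting error of members near 1 FPKM, Hsd17b7 and Stard4, cannot be given.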
